A study of Mus musculus with 21 samples.

Results

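The genes described are the NMDA receptor subunits Grin1, Grin2a, Grin2b and Grin3a, the receptor-linked messenger Nsmf, and the postsynaptic scaffold genes Dlg3, Dlg4, Shank3 and Dlgap1. They were chosen by gene symbol, and all 9 had a row among the 64361 genes of the count table. Bulk RNA of microdissected cortex and hippocampus was read with prime-seq, a protocol that counts the 3' ends of polyadenylated transcripts, in 21 libraries from 11 mice. The mice were control mice (labelled ctrl) and GA-Camk2a mice, taken between 30 and 40 weeks of age when the transgenic mice met the humane endpoint. Cortex gave 5 control and 6 GA-Camk2a libraries and hippocampus 4 control and 6 GA-Camk2a libraries, and 10 mice gave both tissues. The study's text gives the numbers of control mice of the tissues the other way round, and the labels were followed here. GA-Camk2a mice carry a floxed transgene for GFP-tagged poly-GA, the glycine-alanine repeat protein translated from the C9orf72 repeat expansion, which Camk2a-Cre switches on in excitatory neurons. The lines are kept on a C57BL/6J background and the GA-Camk2a mice came from a pair of litters. The labels name neither the sex of the mice nor whether the controls carry Cre or the silent transgene.

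NMDA receptors are glutamate-gated channels that let calcium into the postsynaptic neuron once glutamate, a co-agonist and depolarization coincide, and they are known for their part in synaptic plasticity in cortex and hippocampus. Each receptor pairs the obligatory GluN1 subunit, encoded by Grin1, with GluN2 or GluN3 subunits. The GluN2 tails bind membrane-associated guanylate kinases such as PSD-95 and SAP102, which are tied through SAPAP adaptors to SHANK proteins and so to the actin cytoskeleton of the spine. Grin2a and Grin2b encode GluN2A and GluN2B, the main GluN2 subunits of forebrain neurons, and Grin3a encodes GluN3A, which lowers calcium flow through the channel. Nsmf encodes Jacob, a protein that travels from synapses to the nucleus after NMDA receptor activity. Dlg3 encodes SAP102, Dlg4 encodes PSD-95, Dlgap1 encodes SAPAP1, and Shank3 encodes the scaffold at the base of the postsynaptic density.

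Total counts ranged from 1048201 to 5888102 per library with a median of 1975173, and hippocampus controls were the deepest group. Levels are given as CPM, a gene's count over the library's total scaled to 1000000, and differences as log2 fold changes from edgeR's quasi-likelihood test with batch as a term. A gene was called at a Benjamini-Hochberg adjusted p under 0.05 over all genes tested. All 9 genes passed the filter on low counts in every comparison. The lowest count of any of them in a library was 12, for Grin3a. The tissues differed as labelled in the control libraries for all 5 hippocampus markers, which summed to 589 to 734 CPM in hippocampus and 91.7 to 154 CPM in cortex, whereas of 4 cortex markers 2 were lower and 1, Fezf2, was higher in hippocampus. The fourth, Rorb, a layer 4 marker, reached 1450 CPM in hippocampus control 11, 5300 CPM in hippocampus GA-Camk2a 16 and 4410 CPM in hippocampus GA-Camk2a 30, against 86.6 to 165 CPM in the other hippocampus libraries. Cortex GA-Camk2a 41 read 612 CPM of Rorb, against 133 to 214 CPM in the other cortex libraries, and without it the same 5 genes were called in cortex. The hippocampus and interaction counts of called genes among the 9 and over all genes were therefore repeated without these 3 libraries, and the counts of the other gene lists were not. Counts of the transgene's GFP sequence were 0 to 4 per library and reached 2 in control cortex, so they do not check the genotype labels. Separate mice are the replicates, and the mouse number of a library, as 31 in control 31, is that of the labels.

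RefSeq start sites on GRCm38.p6 were given for 5 of the 9 genes, and the 250 bases before the start are shown for 3 of them that fell together in GA-Camk2a hippocampus. Capitals mark GGGCGG or its reverse complement CCGCCC, the core of the GC box that Sp1 family factors bind, and each sequence runs along the strand of its gene.
Grin1, chr2:25319188-25319437, minus strand: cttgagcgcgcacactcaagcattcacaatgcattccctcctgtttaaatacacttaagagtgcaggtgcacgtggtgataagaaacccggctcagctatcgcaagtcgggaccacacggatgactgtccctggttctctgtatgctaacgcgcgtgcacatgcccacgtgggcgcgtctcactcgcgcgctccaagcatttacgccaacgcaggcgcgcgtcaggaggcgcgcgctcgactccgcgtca
Shank3, chr15:89499358-89499607, plus strand: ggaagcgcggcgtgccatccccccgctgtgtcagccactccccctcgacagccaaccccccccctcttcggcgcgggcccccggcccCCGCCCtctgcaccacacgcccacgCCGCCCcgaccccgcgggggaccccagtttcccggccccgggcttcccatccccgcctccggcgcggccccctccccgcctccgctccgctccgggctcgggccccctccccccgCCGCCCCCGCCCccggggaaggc
Dlg4, chr11:70023732-70023981, plus strand, 1 of 3 start sites listed: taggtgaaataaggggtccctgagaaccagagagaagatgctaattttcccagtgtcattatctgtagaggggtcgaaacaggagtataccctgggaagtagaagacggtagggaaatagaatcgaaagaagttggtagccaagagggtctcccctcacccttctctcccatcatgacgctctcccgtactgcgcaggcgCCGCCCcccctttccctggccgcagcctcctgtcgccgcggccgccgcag
Shank3 held 4 of these matches in a window with 82.4% G and C, and the last pair lies end to end. The Dlg4 window shown held 1 match with 56.8% G and C, while the windows of its other start sites held 0. The Grin1 window held 0 with 58.8%. Among 32851 such windows of all genes 32.7% held a GC box, and the median G and C content was 52.4%. A GC box was in 3 of the 9 windows listed for these genes. The palindromic cAMP response element TGACGTCA was in 0 of the 9, against 1.55% of all windows. These letters describe the windows only, and the counts do not measure binding there.

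In control mice 5 of the 9 genes were higher in hippocampus than in cortex and 0 were lower, with Grin2a ahead. Of 14435 genes tested, 8.69% were called higher in hippocampus, 7.6% lower and 16.3% in either direction. Grin2a read 97.3, 63.6, 142, 93.2 and 95.6 CPM in the cortex controls 11, 20, 31, 37 and 38, and 231, 204, 246 and 205 CPM in the hippocampus controls 11, 20, 31 and 37. The lowest hippocampus control lay above the highest cortex control, as it did for Nsmf and Dlgap1, and 8.15% of all genes showed such a gap. The log2 difference was 1.13 ± 0.14 (SE, adjusted p = 2.15e-05) for Grin2a, 0.75 ± 0.15 (adjusted p = 0.00193) for Grin2b, 0.74 ± 0.14 (adjusted p = 0.00131) for Dlgap1 and 0.64 ± 0.09 (adjusted p = 0.00013) for Nsmf. Shank3 differed by 0.45 ± 0.14 (adjusted p = 0.0373), a call lost in 6 of 10 other settings and in 6 of 9 fits that left out 1 library. With the mouse as a replicate block its adjusted p was 0.0565. The other genes did not pass the test, with log2 differences of 0.35 ± 0.14 for Dlg3 (adjusted p = 0.0899), 0.20 ± 0.21 for Grin3a (adjusted p = 0.578), 0.16 ± 0.12 for Grin1 (adjusted p = 0.419) and 0.06 ± 0.15 for Dlg4 (adjusted p = 0.834). The median over the 9 genes was 0.45, against -0.0009 over all genes tested.

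**Figure D1:**
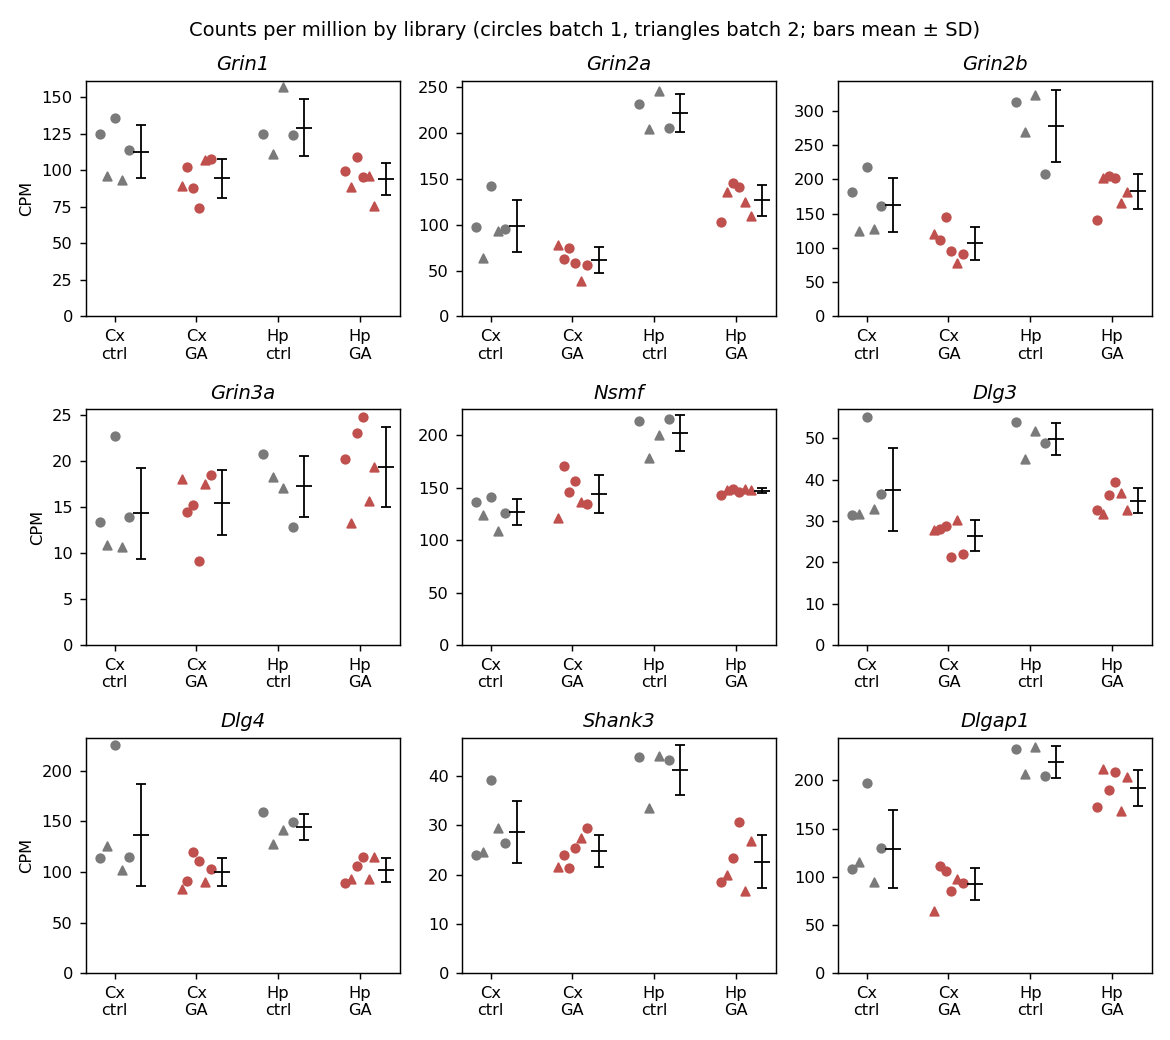
CPM (vertical axis, from 0) of each of the 9 genes in every library of cortex (Cx) and hippocampus (Hp), with control libraries in grey, GA-Camk2a libraries in red, batch 1 as circles, batch 2 as triangles and the mean ± SD beside each group. Hippocampus controls stand above the GA-Camk2a hippocampus for 7 genes, and the highest cortex control in each panel is control 31.

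In GA-Camk2a hippocampus 7 of the 9 genes fell, among them the receptor subunits Grin1, Grin2a and Grin2b, Nsmf and the scaffold genes Dlg3, Dlg4 and Shank3. In hippocampus 0 of the 9 rose, and at an unadjusted p under 0.05 the number higher was 0 by edgeR, DESeq2 and limma and 1 under the pan-neuronal scaling described later. The mean CPM fell by 27.1% to 45.0% for these 7, and for each of them every GA-Camk2a library lay below every control library. Over 14884 genes tested, 5.97% were called lower, 4.97% higher and 10.9% in either direction, and 4.02% had groups that did not overlap in the lower direction. The median log2 fold change was -0.54 over the 9 genes and 0.016 over all genes.

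Grin1, the subunit that every NMDA receptor holds, read 125, 111, 157 and 124 CPM in the hippocampus controls 11, 20, 31 and 37, against a lowest value of 75.4, a median of 95.8 and a highest of 109 CPM in the 6 GA-Camk2a libraries. The gap between the groups was narrow. The log2 fold change was -0.48 ± 0.12 (SE, adjusted p = 0.0136), and without control 31 it was -0.37 (adjusted p = 0.0523).

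Grin2a was lower in every GA-Camk2a hippocampus, at 103 to 145 CPM with a median of 130, than in the controls, whose 4 values of 204 to 246 CPM are given above. The group means were 222 ± 20.4 (SD, n = 4) and 126 ± 17.3 CPM (n = 6), and the log2 fold change was -0.85 ± 0.10 (SE, adjusted p = 9.92e-05). Grin2b read 312, 269, 323 and 207 CPM in the controls and 140 to 205 CPM in GA-Camk2a hippocampus, with a median of 191. Control 37, the lowest, lay just above the highest GA-Camk2a library. Its log2 fold change was -0.64 ± 0.12 (adjusted p = 0.00309).

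Grin3a, the GluN3A gene, was not called. It read 20.8, 18.2, 17.1 and 12.8 CPM in the controls and 13.2 to 24.8 CPM in GA-Camk2a hippocampus, and the groups overlapped widely. The log2 fold change was 0.15 ± 0.18 (adjusted p = 0.665). At 18 to 107 counts per hippocampus library it was the most thinly counted of the receptor genes there.

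Nsmf fell without overlap between the groups. The controls read 214, 178, 200 and 215 CPM, and the GA-Camk2a libraries 143, 148, 149, 146, 149 and 148 CPM in the mice 16, 23, 30, 34, 35 and 41. The SD among the GA-Camk2a libraries was 2.4 CPM, against 17.3 CPM among the controls. Counting error alone, the square root of the count, comes to 6.68 to 10.4 CPM in these GA-Camk2a libraries, so their closeness is tighter than the counts can resolve. The log2 fold change was -0.49 ± 0.07 (adjusted p = 0.000532).

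Both guanylate kinase scaffolds fell as well. Dlg3 read 53.9, 45.0, 51.9 and 48.8 CPM in the hippocampus controls and 31.6 to 39.5 CPM in GA-Camk2a mice, with a log2 fold change of -0.54 ± 0.10 (adjusted p = 0.0026). Dlg4 read 159, 128, 141 and 149 CPM in the controls and 89.3 to 115 CPM in GA-Camk2a mice, with a log2 fold change of -0.54 ± 0.09 (adjusted p = 0.000934). The closest libraries of the genotypes read 39.5 and 45.0 CPM for Dlg3 and 115 and 128 CPM for Dlg4. Counting error alone reached 5.44 CPM for Dlg3 and 8.96 CPM for Dlg4 in a hippocampus control library, so these gaps were narrow.

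Shank3 had the largest fall of the 9 genes in hippocampus. The controls 11, 31 and 37 read 43.8, 43.9 and 43.1 CPM and control 20 read 33.5 CPM, while the GA-Camk2a libraries spread from 16.7 to 30.6 CPM with a median of 21.6. The means of 41.1 ± 5.09 (SD, n = 4) and 22.6 ± 5.31 CPM (n = 6) differed by -0.90 ± 0.14 on the log2 scale (adjusted p = 0.000719). Dlgap1, the SAPAP adaptor between PSD-95 and SHANK, read 232, 206, 234 and 204 CPM in the controls and 168 to 212 CPM in GA-Camk2a hippocampus. These groups overlapped, and the log2 fold change of -0.23 ± 0.08 did not pass the test (adjusted p = 0.0752).

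The 7 hippocampus calls held without the 3 libraries high in Rorb, a choice made after the data were seen. In hippocampus the summed CPM of 8 pan-neuronal genes was 4440 to 4890 in controls and 3240 to 4030 in GA-Camk2a mice, and 7 of the 8 fell. The sum of 6 excitatory neuron markers was 2050 to 2590 and 1080 to 1470 CPM, with 5 of 6 lower, and that of 7 microglia markers 181 to 206 and 285 to 430 CPM, with 5 of 7 higher. The 6 astrocyte markers summed to 1970 to 2310 and 3320 to 4730 CPM, with 4 of 6 higher. Of 6 inhibitory neuron markers 2 rose, Gad2 by 0.40 ± 0.10 (adjusted p = 0.015) and Vip by 1.16 ± 0.18 (adjusted p = 0.000781), and their sums of 794 to 911 and 726 to 1150 CPM overlapped. Of the 5 hippocampus markers Spink8 was at -1.57 ± 0.13 (adjusted p = 6.69e-06), without overlap, and Fibcd1 at -1.05 ± 0.23 (adjusted p = 0.007), both markers of CA neurons. The other 3, Prox1 and C1ql2 of dentate granule cells and Zbtb20, did not pass the test, at 0.21 ± 0.17, -0.22 ± 0.14 and 0.04 ± 0.09. In bulk tissue fewer cells of a type and less RNA per cell cannot be told apart, and the part of these shifts in the receptor and scaffold genes was not tested. When libraries were scaled to the pan-neuronal genes in place of all genes, which raised the median of all genes to 0.41 on the log2 scale, 2 of the 7 still fell, where 1.14% of all genes were called lower and 47.1% higher. These were Grin2a at -0.46 ± 0.09 (adjusted p = 0.00183) and Shank3 at -0.51 ± 0.14 (adjusted p = 0.00853), and under this scaling Grin3a rose by 0.53 ± 0.18 (adjusted p = 0.027) while Dlgap1 turned to 0.16 ± 0.09 (adjusted p = 0.121).

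**Figure D2:**
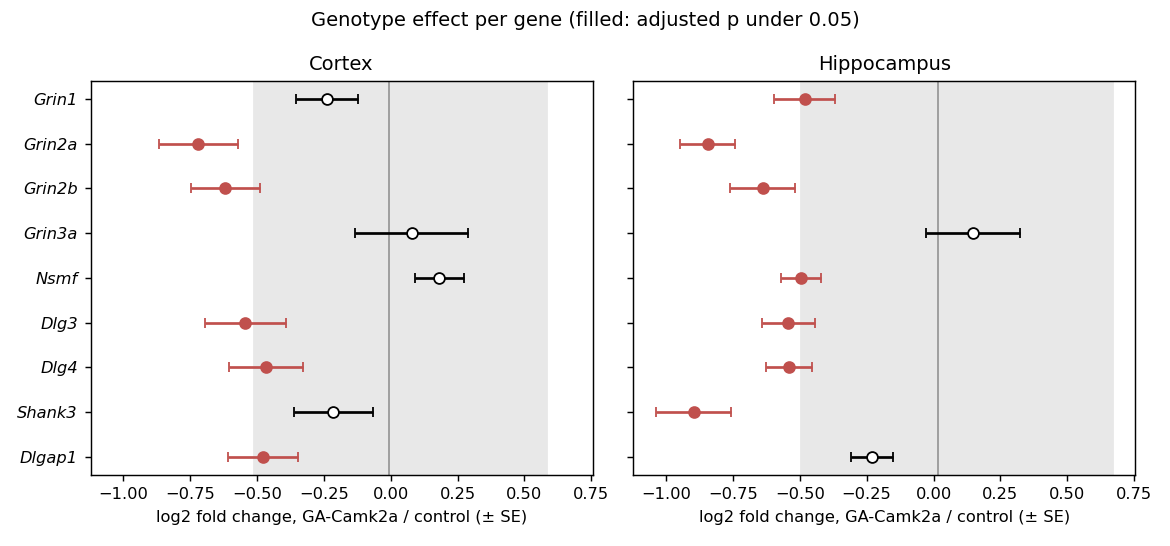
Log2 fold change of GA-Camk2a over control mice (horizontal axis, ± SE) for each gene in cortex (left) and hippocampus (right), filled where the adjusted p was under 0.05, with the 5th to 95th percentile of all genes tested in grey and their median as a line. Filled points number 5 in cortex and 7 in hippocampus and all lie below 0, while Nsmf lies at 0.18 in cortex and at -0.49 in hippocampus.

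In GA-Camk2a cortex 5 of the 9 genes fell, namely Grin2a, Grin2b, Dlg3, Dlg4 and Dlgap1, and 0 rose. At an unadjusted p under 0.05 the number higher was 0 by edgeR and DESeq2 and 1 by limma, and it was also 1 in 5 other edgeR settings and in 4 of the 11 fits that left out 1 library. Of 13058 genes tested, 6.17% were called lower, 6.35% higher and 12.5% in either direction. The groups overlapped for 4 of these 5 genes, and Dlg3 alone had all GA-Camk2a libraries below all controls, as 2.67% of all genes did. The median log2 fold change was -0.47 over the 9 genes and -0.005 over all genes. Cortex control 31 was the highest control library for 9 of 9 genes, and without it 2 calls remained, those of Grin2a and Grin2b.

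Grin2a, at the control values given above, read 38.5 to 78.2 CPM with a median of 60.6 in the 6 GA-Camk2a cortex libraries. Control 20, at 63.6 CPM, was inside that range. The means were 98.3 ± 28.0 (SD, n = 5) and 61.3 ± 14.3 CPM (n = 6), and the log2 fold change was -0.72 ± 0.15 (SE, adjusted p = 0.0023). Without control 31 it was -0.59 ± 0.15 (adjusted p = 0.0202).

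Grin2b read 181, 124, 218, 128 and 161 CPM in the cortex controls and 78.1 to 145 CPM in GA-Camk2a cortex, with a median of 103. Controls 20 and 37 lay within the GA-Camk2a range. The log2 fold change was -0.62 ± 0.13 (adjusted p = 0.00234) and, without control 31, -0.54 ± 0.14 (adjusted p = 0.0176). Grin1 read 125, 96.3, 136, 93.2 and 114 CPM in the controls and 74.1 to 108 CPM in GA-Camk2a mice, and its log2 fold change of -0.24 ± 0.12 did not pass the test (adjusted p = 0.198).

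The cortex values of Grin3a and Nsmf overlapped between the genotypes. Grin3a read 13.4, 10.9, 22.7, 10.6 and 13.9 CPM in controls and 9.09 to 18.5 CPM in GA-Camk2a mice (log2 fold change 0.08 ± 0.21, adjusted p = 0.863). Nsmf read 136, 124, 141, 109 and 126 CPM in controls and 121 to 171 CPM in GA-Camk2a mice (log2 fold change 0.18 ± 0.09, adjusted p = 0.221). Its mean was the higher one in GA-Camk2a cortex, by 13.4%, without passing the test.

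Among the scaffolds all 3 cortex calls were lost without control 31. Dlg3 read 31.5, 31.8, 55.3, 32.9 and 36.6 CPM in the controls and 21.4 to 30.3 CPM in GA-Camk2a cortex, with a log2 fold change of -0.54 ± 0.15 (adjusted p = 0.019) that became -0.35 ± 0.14 (adjusted p = 0.129) without control 31. Dlg4 read 114, 126, 225, 102 and 115 CPM in the controls and 83.6 to 120 CPM in GA-Camk2a cortex, with -0.47 ± 0.14 (adjusted p = 0.0295) and then -0.23 ± 0.11 (adjusted p = 0.208). The Dlg4 call was also lost without control 20, without GA-Camk2a 16 and without GA-Camk2a 23. Dlgap1 read 108, 115, 197, 94.7 and 130 CPM in the controls and 64.7 to 111 CPM in GA-Camk2a cortex, with -0.48 ± 0.13 (adjusted p = 0.0175) and then -0.31 ± 0.12 (adjusted p = 0.116). Control 31 stood far above the next control in each of these 3 genes. Shank3 read 23.9, 24.5, 39.2, 29.4 and 26.3 CPM in the controls and 21.3 to 29.4 CPM in GA-Camk2a cortex, and the log2 fold change of -0.21 ± 0.15 did not pass the test (adjusted p = 0.388).

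In cortex the pan-neuronal genes summed to 4960 to 6010 CPM in controls and 3830 to 4380 CPM in GA-Camk2a mice, with 5 of 8 lower, and the excitatory markers to 1850 to 2350 and 1190 to 1650 CPM, with 4 of 6 lower. The microglia sum was 201 to 215 CPM in controls and 411 to 620 CPM in GA-Camk2a mice, with 5 of 7 higher, and the astrocyte sum 1490 to 2230 and 2190 to 3550 CPM, with 3 of 6 higher. Striatal markers, which mark tissue below the cortex, summed to 345 to 522 CPM in control cortex and 119 to 203 CPM in GA-Camk2a cortex, and 6 of 6 were lower. The sum of the 6 inhibitory neuron markers was higher without overlap, at 985 to 1060 CPM in control cortex and 1100 to 1470 CPM in GA-Camk2a cortex, and the 1 called was Vip, at 1.31 ± 0.18 (adjusted p = 3.67e-05). The part of these shifts in the 9 genes was not tested. Scaled to the pan-neuronal genes, which raised the median of all genes to 0.33 and had 1.29% of all genes called lower and 38.1% higher, none of the 5 falls passed the test. Grin2a was then at -0.38 ± 0.16 (adjusted p = 0.0623), Grin1 turned to 0.09 ± 0.12 (adjusted p = 0.547), Shank3 turned to 0.12 ± 0.15 (adjusted p = 0.532), and Nsmf rose by 0.51 ± 0.10 (adjusted p = 0.000393).

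**Figure D3:**
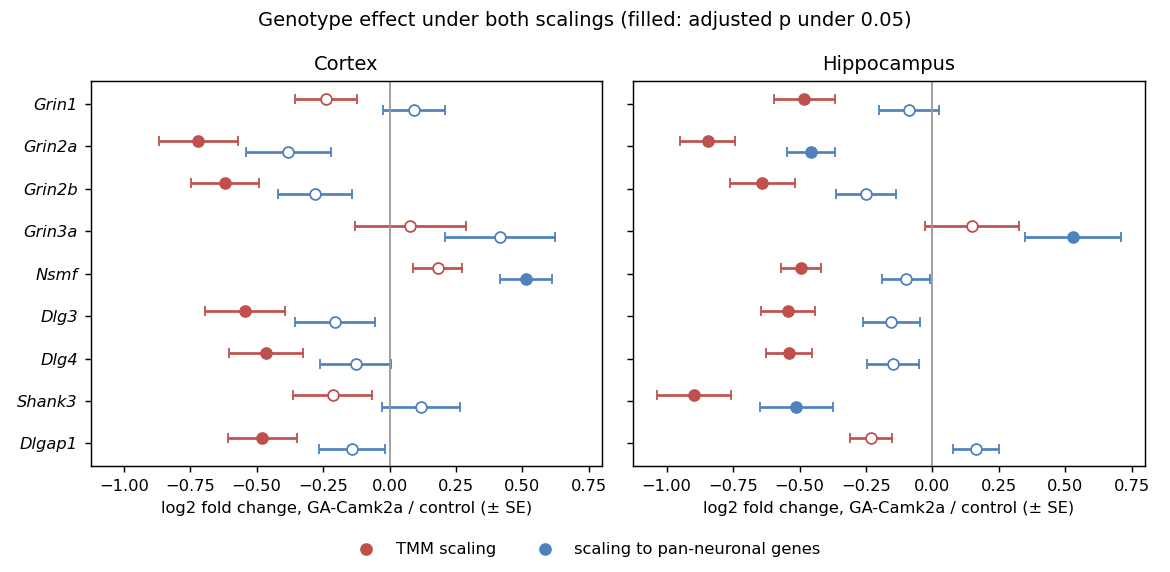
Log2 fold change of GA-Camk2a over control mice (horizontal axis, ± SE) for the 9 genes in cortex (left) and hippocampus (right), scaled to all genes with TMM (red) or to 8 pan-neuronal genes (blue), filled where the adjusted p was under 0.05. Scaling to the pan-neuronal genes moves every point to the right, leaving Grin2a and Shank3 as the falls called in hippocampus, with Grin3a as a rise called there and Nsmf as the rise called in cortex.

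Whether the genotype effect differed between the tissues was tested as an interaction over all 21 libraries, and 1 of the 9 genes was called. Nsmf, the synapse-to-nucleus messenger, fell in hippocampus and was not called in cortex, and its 2 effects differed by -0.70 ± 0.11 on the log2 scale (adjusted p = 0.00272). By p it was number 6 of 14751 genes, of which 0.4% were called, 0.251% lower in hippocampus and 0.149% higher. It was the 1 gene of the 9 called in each of 11 other settings, with adjusted p from 1.49e-06 to 0.049, and in each of 21 fits that left out 1 library, with adjusted p from 0.00304 to 0.0174. With the mouse as a replicate block the difference was -0.65 ± 0.12 (adjusted p = 0.0187), and scaled to the pan-neuronal genes it was -0.61 ± 0.12 (adjusted p = 0.0238). Cell type and region markers were called in the same interaction. Of the 6 excitatory neuron markers 2 had a lower effect in hippocampus than in cortex, Slc17a7 by -0.60 ± 0.14 (adjusted p = 0.0389) and Neurod6 by -1.23 ± 0.25 (adjusted p = 0.0271), as was Spink8, 1 of the 5 hippocampus markers, by -1.83 ± 0.25 (adjusted p = 0.000798). Of the 6 striatal markers 3 had a higher effect, Adora2a by 2.19 ± 0.48, Rgs9 by 1.71 ± 0.28 and Ppp1r1b by 1.56 ± 0.34 (adjusted p = 0.0337, 0.00474 and 0.0337), with the falls in cortex given above. Of the 8 pan-neuronal genes 0 were called by edgeR and 1, Rbfox3 at -0.36 ± 0.14, had an unadjusted p under 0.05. Their median difference was -0.10. The part of these shifts in the Nsmf difference was not tested.

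Shank3 had a difference between tissues nearly as large, -0.69 ± 0.20 (adjusted p = 0.172), but did not pass the test. Grin2a differed by -0.16 ± 0.20 (adjusted p = 0.859), Grin2b by -0.06 ± 0.20 (adjusted p = 0.97), Dlg3 by -0.02 ± 0.18 (adjusted p = 0.999) and Dlg4 by -0.10 ± 0.18 (adjusted p = 0.916). These are the 4 genes called in both tissues, 4 of the 5 cortex calls and 4 of the 7 hippocampus calls, in mice that mostly gave both tissues. Of the 12916 genes tested in both tissues 2.52% were called lower in both. The last 3 were Grin1 at -0.26 ± 0.17 (adjusted p = 0.644), Grin3a at 0.06 ± 0.28 (adjusted p = 0.986) and Dlgap1 at 0.22 ± 0.17 (adjusted p = 0.733).

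The order of the 4 groups by mean CPM differed among the genes. Grin2a, Grin2b and Dlgap1 were ordered hippocampus control, hippocampus GA-Camk2a, cortex control, cortex GA-Camk2a. For Grin2a and Grin2b the first step was the one where neighbouring groups did not overlap, and for Dlgap1 every step overlapped. Nsmf had hippocampus controls on top at 202 ± 17.3 CPM (SD, n = 4), without overlap, followed by GA-Camk2a hippocampus at 147 ± 2.4 (n = 6), GA-Camk2a cortex at 144 ± 17.5 (n = 6) and control cortex at 127 ± 12.7 CPM (n = 5), which overlapped in turn. Grin1, Dlg3, Dlg4 and Shank3 had both control groups above both GA-Camk2a groups in their means, and neighbouring groups overlapped in each step but the last one of Dlg3. Grin3a ran from 14.3 ± 4.92 (n = 5) in control cortex to 19.4 ± 4.37 CPM (n = 6) in GA-Camk2a hippocampus, and all neighbours overlapped.

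Both batches of the labels held both genotypes in each tissue. In cortex the log2 CPM difference of Grin2a was -0.81 in batch 1 (3 control, 4 GA-Camk2a) and -0.49 in batch 2 (2 of each), that of Grin2b -0.77 and -0.38, and that of Dlg3 -0.68 and -0.15. Dlg4 differed by -0.45 and -0.39 and Dlgap1 by -0.51 and -0.40. Hippocampus differences were -0.76 and -0.87 for Grin2a, -0.88 and -0.89 for Shank3, -0.51 and -0.52 for Dlg3, -0.58 and -0.42 for Dlg4, -0.56 and -0.35 for Nsmf, -0.50 and -0.69 for Grin2b and -0.30 and -0.61 for Grin1. Here each batch had 2 controls and 3 GA-Camk2a mice. Each of the genes called in a tissue kept its sign in both batches of it, whereas Grin3a did not, at 0.47 and -0.15 in hippocampus and -0.22 and 0.72 in cortex.

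GluN2A takes over from GluN2B at many forebrain synapses as they mature, so the ratio of Grin2a to Grin2b counts was compared between the genotypes. In hippocampus the log2 ratio was -0.44, -0.39, -0.39 and -0.01 in the controls and -0.72 to -0.41 in GA-Camk2a mice. The means were -0.31 ± 0.20 (SD, n = 4) and -0.53 ± 0.11 (n = 6), and the difference was -0.22 (exact two-sided permutation test, p = 0.0143, adjusted over 4 ratio tests p = 0.0286). Control 37 carried much of it, since without that library the difference was -0.12 (exact p = 0.0952). The cortex means were -0.73 ± 0.20 (n = 5) and -0.80 ± 0.16 (n = 6), with a difference of -0.07 that was smaller than the spread between libraries (exact p = 0.558, adjusted p = 0.576). These ratios compare counts of 3' ends and are not a ratio of subunits.

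The scaffold of excitatory synapses was set against that of inhibitory ones by the ratio of Dlg4 to Gphn, which encodes gephyrin. In hippocampus the log2 ratio was 1.68, 1.62, 1.47 and 1.72 in the controls and 1.11 to 1.46 in the 6 GA-Camk2a libraries, and the groups did not overlap, although control 31 and GA-Camk2a 30 were close. The means of 1.62 ± 0.11 (SD, n = 4) and 1.29 ± 0.15 (n = 6) differed by -0.33 (exact two-sided permutation test, p = 0.00952, adjusted p = 0.0286, with a smallest possible p of 0.00476). In cortex they were 1.5 ± 0.49 (n = 5) and 1.38 ± 0.34 (n = 6), a difference of -0.13 (exact p = 0.576). Gphn itself did not pass the test in either tissue, at -0.33 ± 0.15 in cortex (adjusted p = 0.158) and -0.20 ± 0.11 in hippocampus (adjusted p = 0.306). In hippocampus its fall was the smallest of the 5 inhibitory synapse genes read below, whose median was -0.37 and lowest value -0.68. The ratio therefore describes these 2 genes and not excitatory against inhibitory synapses as a whole.

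The other genes of the receptor and its scaffold were read by the same test. Of the other subunit genes, Grin3b was too low to test, and Grin2c and Grin2d did not pass in either tissue, the first at -0.16 ± 0.22 in cortex and -0.08 ± 0.19 in hippocampus, the second at -0.18 ± 0.22 and 0.11 ± 0.24. Among 7 other DLG, SAPAP and SHANK genes, 4 fell in hippocampus, with Shank1 at -0.85 ± 0.13 (adjusted p = 0.000701), Shank2 at -0.53 ± 0.09 (adjusted p = 0.000964), Dlgap4 at -0.52 ± 0.09 (adjusted p = 0.0012) and Dlgap3 at -0.52 ± 0.11 (adjusted p = 0.00572). Dlg2, which encodes PSD-93, stood at -0.01 ± 0.09 there and at 0.0004 ± 0.11 in cortex. In cortex Dlg1, which encodes SAP97, was the 1 gene of the 7 called, at -0.37 ± 0.11 (adjusted p = 0.0311). The list's median was -0.52 in hippocampus and -0.22 in cortex.

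Of 12 signalling proteins of the postsynaptic density 7 fell in each tissue. In hippocampus Agap2, a GTPase-activating protein of Arf proteins, was at -0.89 ± 0.09 (adjusted p = 2.27e-05). In cortex Kalrn, a guanine nucleotide exchange factor of spines, was at -0.80 ± 0.13 (adjusted p = 0.000185) and Cnksr2, a scaffold of Ras signalling, at -0.67 ± 0.12 (adjusted p = 0.000714). The medians were -0.54 and -0.45.

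Kinases and a phosphatase of NMDA receptors included 3 falls of 8 in each tissue. Ptk2b, the kinase Pyk2, fell by 0.81 ± 0.08 in hippocampus (adjusted p = 2.02e-05). Cdk5r1, the p35 activator of Cdk5, fell there by 0.66 ± 0.11 (adjusted p = 0.000836). It fell by 0.50 ± 0.10 in cortex (adjusted p = 0.0018), as did Ptk2b by 0.44 ± 0.10 (adjusted p = 0.00634) and Ptpn5, the phosphatase STEP, by 0.43 ± 0.12 (adjusted p = 0.0245). Of 4 tested genes that make or carry the co-agonists glycine and D-serine, 0 were called by edgeR in either tissue. At an unadjusted p under 0.05 stood 1 in each, Slc1a4, a neutral amino acid transporter, at 0.42 ± 0.16 in cortex and Srr, serine racemase, at -0.32 ± 0.11 in hippocampus.

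Adhesion proteins of excitatory synapses fell in 4 of 10 cases in hippocampus, with Nptxr, the neuronal pentraxin receptor, at -0.69 ± 0.09 (adjusted p = 0.000176) and Lrrtm1 at -0.51 ± 0.10 (adjusted p = 0.00332), and in 2 of 10 in cortex, with Lrrc4c at -0.59 ± 0.12 (adjusted p = 0.00191) and Nptxr at -0.52 ± 0.11 (adjusted p = 0.00387). Of 5 scaffold and adhesion genes of inhibitory synapses 3 fell in hippocampus, with Slitrk3 at -0.68 ± 0.12 (adjusted p = 0.0017), and 2 in cortex, with Slitrk3 at -0.50 ± 0.16 (adjusted p = 0.043). The median was -0.37 in hippocampus and -0.33 in cortex for the inhibitory list, and -0.32 and -0.30 for the excitatory adhesion list. Pan-neuronal genes had medians of -0.37 and -0.30, and the 6 excitatory neuron markers had lower ones of -0.87 and -0.63. No gene of these synaptic lists rose in either tissue.

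**Figure D4:**
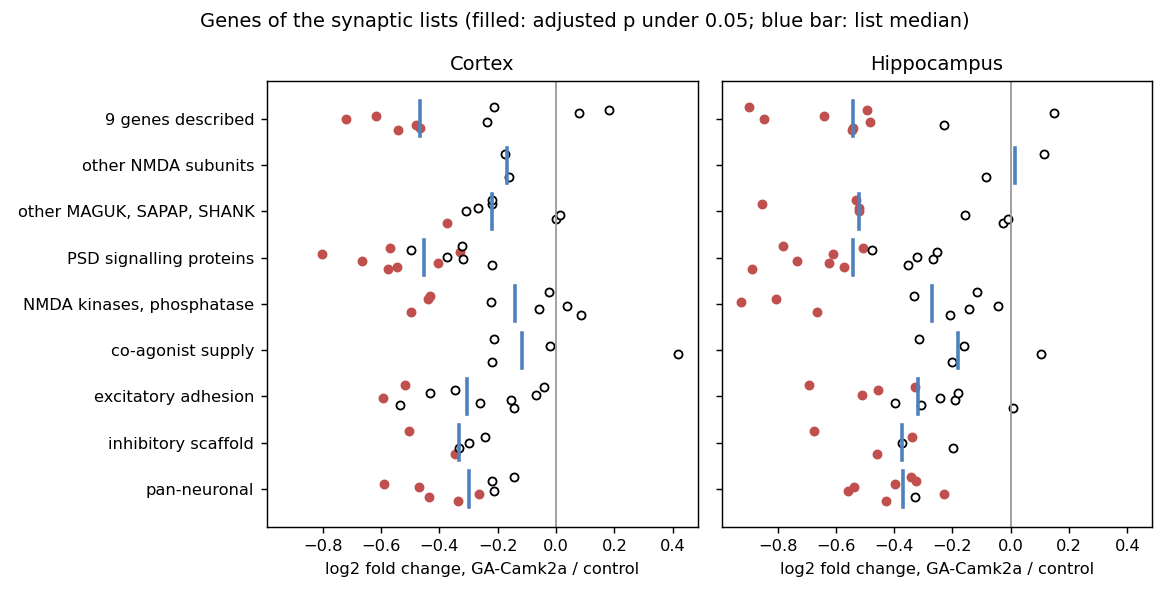
Log2 fold change of GA-Camk2a over control mice (horizontal axis) of each tested gene of the synaptic lists in cortex (left) and hippocampus (right), filled where the adjusted p was under 0.05, with the list median as a blue bar. In hippocampus the 9 genes (-0.54), the signalling proteins (-0.54) and the other scaffolds (-0.52) have medians below that of the pan-neuronal genes (-0.37), and all filled points lie left of 0. The 6 excitatory neuron markers, which are not drawn, had a lower median there (-0.87).

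The genes whose profile over the 21 libraries lay nearest to the mean profile of the 9 were sought among 14751 genes by the root mean square difference of centred log2 CPM. Among the 5 nearest were Synj1 at 0.116, Slc25a23 at 0.119, Map2 at 0.133 and Sptan1 at 0.135, where smaller is nearer. Synj1 encodes the phosphatase synaptojanin 1 of synaptic vesicle recycling and Map2 a dendritic microtubule protein. Among the 9 genes Dlg3 lay closest to their mean, at 0.132, and Grin2a farthest, at 0.416, the gene with the largest difference between tissues. These distances share depth and tissue and describe the libraries only.

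Several of the 9 loci overlap other genes in the GENCODE annotation. Grin1 has the antisense gene Grin1os, Shank3 has Gm15609 on the opposite strand, Dlgap1 and Grin2b have opposite-strand transcripts, Grin3a holds Ppp3r2 on its own strand, and Nsmf holds the microRNA gene Mir7664. Whether the counting used strand is not stated, so the counts of these genes may include reads of their partners. Grin2a, Dlg3 and Dlg4 had no overlapping gene.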

How the data were processed

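Prime-seq libraries of cortex and hippocampus were made by the authors from GA-Camk2a and control mice. The authors demultiplexed the reads, processed them with zUMIs on GRCm39 and deposited whole-number counts per gene, not normalized. The submitters' processing notes also list FastQC 0.11.8, cutadapt 1.12, STAR and DESeq2 1.44. The annotation release, the use of strand and whether molecular identifiers or reads were counted are not given in the sources used here, so intervals from counting would cover counting error only. Groups, mouse numbers and batches came from the sample labels. The table had 64361 gene rows and a GFP row, which stayed out of library sizes and tests, and 0 count columns were unused. Symbols came from GENCODE on GRCm38 by Ensembl number (43308 rows, 96.1% of counts), so no gene coordinates of the files' build are given. Promoter windows are RefSeq sequences of GRCm38.p6.

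Each tissue had its own fit of the genotype effect in edgeR 4.0.16 (R 4.3.3), with the filterByExpr filter at 10 counts, TMM normalization, batch as a term, quasi-likelihood F-tests, and Benjamini-Hochberg adjustment over all genes tested at 0.05. The authors used DESeq2 and name no covariate. Standard errors are the log2 fold change over the square root of F. The interaction used all 21 libraries and the tissue comparison the 9 control libraries. Neither had a term for the mouse in its main fit, although most mice gave both tissues. CPM were computed from the total count, and log2 CPM with a prior count of 2. Ratios went into exact two-sided permutation tests, 4 in all, adjusted together. Alternatives were RLE, upper quartile and pan-neuronal scaling, no filter, no batch term, DESeq2 1.42.0, limma-voom 3.58.1 with quality weights, thinned counts, single batches, 1 fit over both tissues, the mouse as a replicate block, and leaving out each library. The script was tested on simulated data, with changes put into genes drawn from all genes tested. A log2 change of 0.5 was called in 33.3% of them in cortex, 21.3% in hippocampus and 6.25% in the interaction. A change of 1 was called in 91.5%, 84.5% and 50%. A gene that did not pass a test may therefore still differ.

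The mouse number pairs the tissues of 10 mice. The correlation of their deviations from group means ran from -0.23 to 0.29, and 5 of 10 were over 0.1. The 46 pairs of libraries within groups differed beyond sampling noise (chi-square per degree of freedom 2.1 to 15.1) and 0 were identical.

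All 9 genes are named. From each other list up to 4 genes were named, the largest falls and rises past the threshold in a tissue, or any gene where a count of 5 or fewer is given, and 5 genes by likeness of profile. Some genes that this rule names are not reported here. Dlg2, Gphn, Grin2c, Grin2d and Fezf2 were named besides. The genes and lists were chosen with earlier results of these data known. No library was left out of the fits reported first.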

Additional observations from a re-analysis of the deposited data

Results flagged for a closer look

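Among the 36 gene and group combinations of 4 to 6 libraries that were examined, 4 held a library that stood apart from its group by Dixon's criterion, which chance alone passes in about 1 of 20. In 3 of the 4 it was cortex control 31, with Grin3a at 22.7 CPM, Dlg3 at 55.3 CPM and Dlg4 at 225 CPM against at most 13.9, 36.6 and 126 CPM in the other cortex controls. The fourth was hippocampus control 20, with Shank3 at 33.5 CPM against 43.1 to 43.9 CPM in the other hippocampus controls, a deviation towards the GA-Camk2a libraries.

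The genotype effect on Nsmf differed between the tissues by -0.70 on the log2 scale, hippocampus minus cortex, by the interaction test (edgeR, adjusted p = 0.00272).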

How the results depend on the processing

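The count of called genes among the 9 in cortex, 5, was 1 under pan-neuronal scaling, 3 without the batch term, 0 in batch 2 alone (edgeR, 2 at an unadjusted p under 0.05) and 4 or 5 in the other settings, and 2 to 5 when 1 library was left out, with 2 reached without control 31. The 1 under pan-neuronal scaling was a rise of Nsmf, and 0 falls were called. Of all genes 38.1% were then called higher and 1.29% lower. In hippocampus the count of 7 became 3 under pan-neuronal scaling and 0 in batch 1 alone (7 at an unadjusted p under 0.05), was 5 to 8 in the other settings, and 6 or 7 when 1 library was left out. Those 3 were the falls of Grin2a and Shank3 and a rise of Grin3a, where 47.1% of all genes were called higher and 1.14% lower. In cortex Dlg4 also lost its call without the batch term and in 6 other settings. It lost it in 4 of 11 fits that left out 1 library as well, so it is the least stable of the 5. The interaction called Nsmf in every setting run, and the replicate block, with mice as blocks, changed no call there and lost that of Shank3 (adjusted p = 0.0565) between the tissues. Over all genes the interaction called 59, against 159 without the filter, 127 with DESeq2 with batch, 98 with DESeq2 without covariates, 36 without the batch term, 24 after thinning, 20 without the libraries high in Rorb, and 22 to 66 when 1 library was left out. Cortex called 1635 genes, against 5144 under pan-neuronal scaling, 1008 after thinning, 876 in batch 1, 230 in batch 2 and 1038 without control 31, and hippocampus 1628, against 7184, 932, 115, 681 and 1005 without the libraries high in Rorb, 1082 without control 20 and 1038 without control 31. The tissue comparison called 2351, against 4282 under pan-neuronal scaling and 1374 after thinning. The share of calls that were higher was 50.7% in cortex, 45.5% in hippocampus and 53.3% between tissues, against 96.7%, 97.6% and 90.2% under pan-neuronal scaling, and in the interaction 37.3% against 49.3% with RLE and 62.3% under pan-neuronal scaling. Batches alone have fewer libraries, and other causes were not tested.

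The effects that changed sign were of genes not called in that comparison. In cortex Grin1 read 0.091 and Shank3 0.12 under pan-neuronal scaling, Grin1 0.065 in batch 2, and Grin3a -0.18 in batch 1 and -0.012 to 0.33 when 1 library was left out. In hippocampus Dlgap1 read 0.16 under pan-neuronal scaling, and Grin3a -0.035 after thinning, -0.21 in batch 2 and -0.069 to 0.25 when 1 library was left out. In the interaction Dlg3 read 0.0073 with RLE, 0.0496 under pan-neuronal scaling, 0.019 and 0.018 with DESeq2 with and without batch, 0.062 without the libraries high in Rorb and -0.15 to 0.051 when 1 library was left out. Grin2b read 0.016 under pan-neuronal scaling, 0.067 without the libraries high in Rorb and -0.19 to 0.076 when 1 was left out, Dlg4 0.021 without the libraries high in Rorb, and Grin3a -0.065 with limma-voom, -0.34 after thinning and -0.12 to 0.17 when 1 was left out. Between tissues Dlg4 ran from -0.023 to 0.26 when 1 was left out. The ratio of Grin2a to Grin2b in hippocampus was -0.26 in batch 1 (exact p = 0.1) and -0.17 in batch 2 (exact p = 0.2), sizes at which p under 0.05 cannot be reached, and -0.26 to -0.12 when 1 library was left out. In cortex it ran from -0.12 to 0.0048. The ratio of Dlg4 to Gphn was -0.42 and -0.24 in the batches of hippocampus (exact p = 0.2 in each), 0.23 in batch 2 of cortex, and -0.26 to 0.0019 in cortex when 1 library was left out.

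DESeq2 with batch gave Grin3a no adjusted p in the interaction. Grin3a had 12 to 107 counts per library and Shank3 24 to 197. After thinning to the smallest library Dlg3 lost its call in hippocampus and Dlg4 its call in cortex, while Shank3 kept its call in hippocampus.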
